A study of Mus musculus with 10 samples.

Results

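Tyrosine hydroxylase transcript (Th) was abundant in sorted sensory neurons of the dorsal root ganglia (DRG) and of the trigeminal ganglia (TG). The genes that complete noradrenaline synthesis, the noradrenaline transporter, the autonomic transcription factors and choline acetyltransferase were listed at low FPKM or at 0. The highest of their values were 2.58 for Ddc, in a DRG library, and 3.39 for Dbh, in the 1 TG library where it was above 0. A listed 0 does not always mean that reads were absent, as set out below. FPKM, a count of sequenced fragments scaled for transcript length and library size, is the expression level used throughout. The account covers 8 genes chosen by symbol from the 45952 in the expression table, namely Th, Ddc, Dbh, Gch1, Slc6a2, Phox2a, Hand2 and Chat. All 8 were found, each as 1 entry, and 2 of them, Th and Ddc, passed the detection filter (FPKM of at least 1 in at least 2 libraries of DRG or of TG), as did 12637 genes in all.

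Neurons were isolated by fluorescence-activated cell sorting from naïve adult Avil-GFP mice of both sexes, STOCK Tg(Avil-EGFP)QD84Gsat/Mmucd on a CD1 background, so every group carried the same transgene. Of 10 libraries, 6 were from lumbar DRG (3 male and 3 female) and 4 from TG (2 male and 2 female). The advillin promoter drives GFP in these mice, and live GFP-positive events of each animal were collected, so the sort selects for advillin expression. The dissociation used is stated to favour neurons of small and medium diameter. The labels name satellite glial cells as a contaminant of every library.

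Catecholamines are made from tyrosine in a chain: tyrosine hydroxylase yields L-DOPA, aromatic L-amino acid decarboxylase (Ddc) yields dopamine, and dopamine beta-hydroxylase (Dbh) yields noradrenaline. Tyrosine hydroxylase needs the cofactor tetrahydrobiopterin, whose first synthetic step is catalysed by GTP cyclohydrolase (Gch1). Sympathetic neurons express the whole chain together with the noradrenaline transporter Slc6a2 and the transcription factors Phox2a and Hand2, whereas in mouse DRG Th is best known as a marker of C-fibre low-threshold mechanoreceptors (C-LTMR), unmyelinated afferents that respond to light touch.

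The promoters of Th and Dbh are shown because these genes encode the first and the last enzyme of the chain, Th being the highest member and Dbh listed at 0 in most libraries. Each sequence is the 250 bases before the RefSeq start on GRCm38.p6, read 5′ to 3′ on the gene's strand, at chr7:142899996-142900245 (minus strand) for Th and chr2:27165257-27165506 (plus strand) for Dbh. Capitals mark the cAMP response element TGACGTCA.
Th: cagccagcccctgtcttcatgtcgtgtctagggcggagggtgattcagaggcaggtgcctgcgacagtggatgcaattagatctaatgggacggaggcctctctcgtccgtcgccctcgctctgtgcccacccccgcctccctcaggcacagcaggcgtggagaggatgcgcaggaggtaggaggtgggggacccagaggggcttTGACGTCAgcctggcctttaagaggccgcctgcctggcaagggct
Dbh: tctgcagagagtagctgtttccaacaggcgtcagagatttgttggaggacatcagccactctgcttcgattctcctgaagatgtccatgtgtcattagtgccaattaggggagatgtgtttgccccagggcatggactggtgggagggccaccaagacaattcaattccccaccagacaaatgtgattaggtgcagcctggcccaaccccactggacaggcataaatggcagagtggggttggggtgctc
The element in the Th window began at base -45 and was not found in the windows of the other members that matched a RefSeq start, 7 of the 8 genes in all. The palindrome TGACGTCA was present in 1.55% of the 32851 windows of the same length. A homeodomain core, TAATTA on either strand, was found in 4.84% of all windows and, among the members, in that of Hand2 at base -175. These matches describe the letters only, and no binding was measured here.

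The relative depth of the libraries was read from the FPKM above 0 of 1527 genes with very low counts. A lower typical value was taken as greater depth. By this estimate, depth differed by at most a factor of 1.45. Male DRG replicate 3, female DRG replicate 1 and female DRG replicate 3 stood apart from the rest, with a median Spearman correlation with the other libraries of 0.849, 0.869 and 0.895, against at least 0.933 for the other 7. All 10 sensory neuron markers examined, Avil among them, were detected. An FPKM of 0 was not always an absence of reads: Bscl2 and Ubap2l, genes used by most cells and chosen after their values were seen, were listed at 0 in 9 libraries, although the authors' mean normalized counts, averaged over libraries, were 4755 and 1184. The library above 0 was female TG replicate 2 for both, at 124 FPKM for Bscl2 and 22.4 for Ubap2l. Ubap2l had 2 entries in the expression table, and the other entry is not described here. Genes below are therefore described as listed at 0, and no fold is given against such a group.

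Th, the rate-limiting enzyme of the chain, lies at chr7:142892752-142931128 (GRCm38, minus strand). Its FPKM in male DRG was 264, 245 and 180, and in female DRG 84.4, 321 and 199. In male TG it was 55.9 and 123, and in female TG 42.8 and 102. Th was thus expressed in all 10 libraries and was higher in 5 DRG libraries than in any TG library, while female DRG replicate 1 lay below 2 of the TG libraries.

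The mean Th level was 216 ± 81.4 FPKM over the 6 DRG libraries (SD, n = 6) and 81.0 ± 37.9 over the 4 TG libraries (SD, n = 4), a ratio of 2.66. By mean FPKM, Th ranked 553rd among the genes of DRG and 1359th among those of TG. The fitted difference of log2(FPKM + 1), DRG minus TG, was 1.42 (SE 0.38, 95% interval 0.59 to 2.24) in the limma model of ganglion and sex, with an unadjusted p of 0.00289 and an adjusted p of 0.375 over all genes tested. Th therefore did not pass the threshold of 0.05, as 0 of the 2 detected members did, against 14 of 12637 genes (0.111%) in the same comparison. The exact permutation test over all 210 assignments of the libraries gave p = 0.0238 for Th alone, two-sided and unadjusted (smallest possible 0.00476), and does not use the pairing of libraries. Among the pairs of libraries with a shared description number, Th was higher in DRG in 4 of 4. Male DRG replicate 1 and female DRG replicate 1 have no such number and lie outside these pairs. Female DRG replicate 1, at 84.4 FPKM, is the DRG library that lay below some TG libraries. With array weights, which give less weight to libraries that fit poorly, the difference was 1.91 and the adjusted p for Th was 0.0143, whereas the other alternatives gave adjusted p from 0.130 to 0.994. In bulk libraries, fewer cells of a type and less RNA per cell cannot be told apart.

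**Figure D1:**
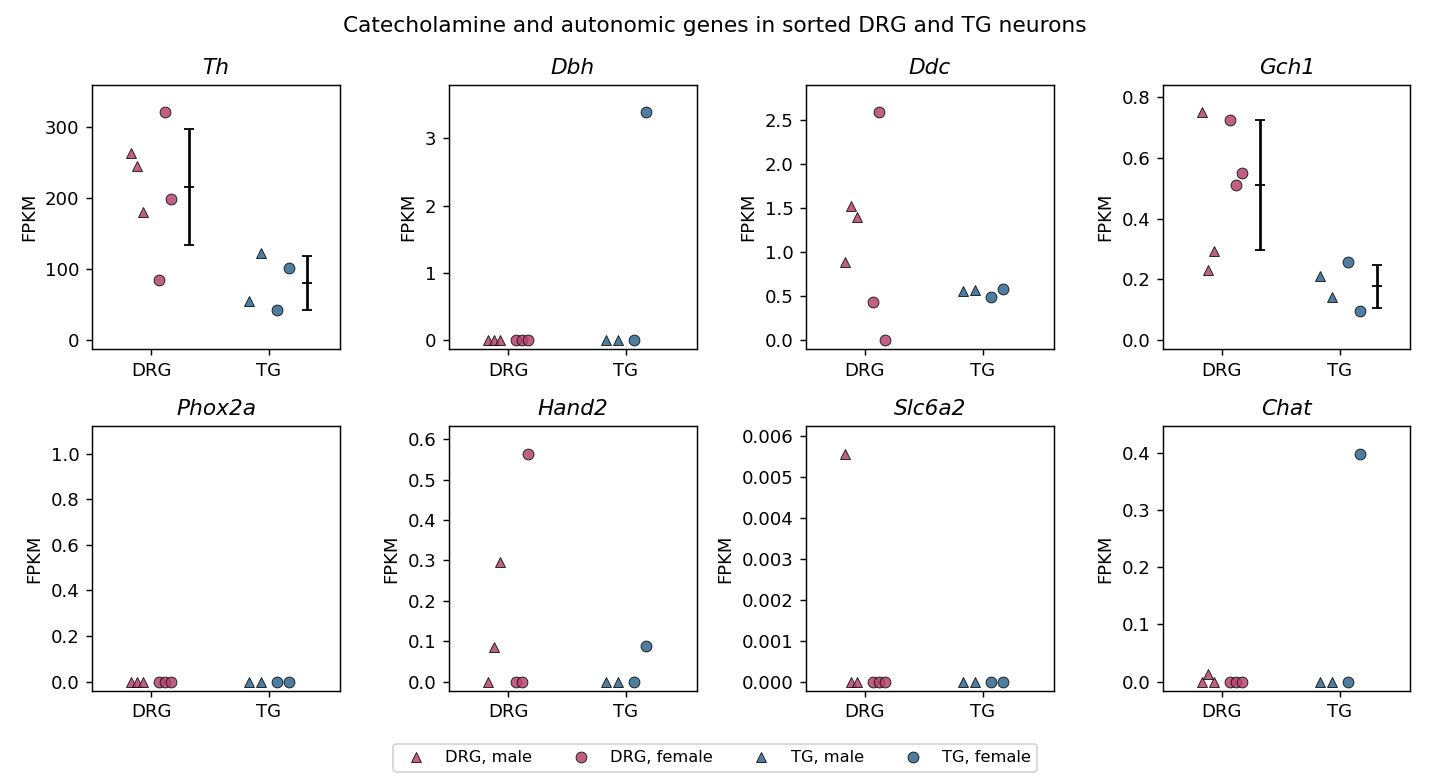
FPKM of the 8 genes in each library, by ganglion (DRG red, TG blue) and sex (triangles male, circles female), with a separate linear axis for each gene; bars for Th and Gch1 are mean ± SD (6 DRG and 4 TG libraries). Th reached 321 FPKM, while Dbh was above 0 in 1 TG library and Phox2a in none.

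Within each sex, the Th ratio of DRG to TG was 2.56 in males (mean 230 against 89.7 FPKM) and 2.79 in females (202 against 72.4 FPKM). With 3 libraries against 2, an exact test cannot go below a p of 0.1, and it gave 0.1 for males and 0.3 for females. The interaction of ganglion and sex for Th was 0.04 on the log2 scale (SE 0.80, limma adjusted p = 1.0). Neither detected member passed the interaction test, nor did any of the 12637 genes (0%), of which 148 had an unadjusted p below 0.05. Between the sexes, Th differed by 0.35 on the log2 scale, male minus female (SE 0.37, limma adjusted p = 0.831), and 0 of the 2 detected members passed, against 0.0237% of all genes tested.

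Ddc, the decarboxylase that follows Th in the chain, lies at chr11:11814101-11898144 (minus strand). Its FPKM was 0.891, 1.53 and 1.40 in male DRG and 0.432, 2.58 and 0 in female DRG. In TG it was 0.562 and 0.572 in males and 0.491 and 0.584 in females. Ddc thus varied widely among DRG libraries and lay in a narrow band in TG, and the groups overlapped.

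Ddc passed the filter through 3 DRG libraries and through none of TG, so its detection alone gives no sign of a difference. The fitted Ddc difference, DRG minus TG, was 0.35 (SE 0.32, limma adjusted p = 0.855), and 0.54 (adjusted p = 0.825) without female DRG replicate 3, which is listed at 0. Without female DRG replicate 2, its highest library, it was 0.12 (adjusted p = 0.900). The 95% interval for Ddc over all libraries ran from -0.36 to 1.05 and includes 0, which does not show that the level was the same. Where both were above 0, Th exceeded Ddc by a factor of 87.2 in female TG replicate 1 to 296 in male DRG replicate 1. An overlapping antisense gene, 1700042O10Rik, lies within Ddc, and whether counting used strand is not given in the sources used here.

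Dbh, the enzyme that turns dopamine into noradrenaline, was listed at 0 in 9 of 10 libraries. The exception was female TG replicate 2, at 3.39 FPKM. The authors' mean normalized count for Dbh was 9.32. No fold between ganglia was formed for Dbh, because all 6 DRG libraries were listed at 0.

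Gch1, which supplies the cofactor, was low but above 0 in all libraries. It was 0.749, 0.232 and 0.292 FPKM in male DRG and 0.722, 0.512 and 0.551 in female DRG. In TG it was 0.212 and 0.142 in males and 0.257 and 0.0975 in females. The groups overlapped, since male DRG replicate 2 lay below female TG replicate 1, and the other 5 DRG libraries lay above every TG library.

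The mean Gch1 level was 0.510 ± 0.214 FPKM (SD, n = 6) in DRG and 0.177 ± 0.0712 (SD, n = 4) in TG, and no library reached 1. The unadjusted, two-sided exact permutation p was 0.0143. In limma without a filter, over 22301 genes, the Gch1 difference was 0.35 (SE 0.11) with an adjusted p of 0.869. Within Gch1, 2 pseudogenes are annotated, and whether they share reads with it was not tested.

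The noradrenaline transporter Slc6a2, which returns noradrenaline to sympathetic endings, was listed at 0.00558 FPKM in male DRG replicate 1 and at 0 in the other 9 libraries, and the authors' mean normalized count was 0. Phox2a, a homeodomain factor needed for the noradrenergic fate, was listed at 0 in all 10 libraries, with a mean normalized count of 4.03. Its locus overlaps Inppl1 on the opposite strand, so the origin of those counts cannot be told apart here. Hand2, a basic helix-loop-helix factor of sympathetic neurons, was at 0.0862 and 0.295 FPKM in male DRG replicates 2 and 3, 0.565 in female DRG replicate 3 and 0.0883 in female TG replicate 2, and was listed at 0 in the other 6. Chat, which makes acetylcholine and marks cholinergic neurons, was at 0.0135 FPKM in male DRG replicate 2 and 0.398 in female TG replicate 2, and was listed at 0 in the other 8. None of these genes reached 1 FPKM in any library.

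Of the 2 detected members, 0 had DRG and TG libraries that did not overlap, against 246 of the 12637 genes tested (1.95%). By mean FPKM over all libraries the members ran Th, Ddc, Gch1, Dbh, Hand2, Chat, Slc6a2 and Phox2a, an order that neither ganglion showed by itself. In DRG the order was Th, Ddc, Gch1, Hand2, Chat and Slc6a2, with Dbh and Phox2a listed at 0, and in TG it was Th, Dbh, Ddc, Gch1, Chat and Hand2, with Slc6a2 and Phox2a listed at 0 and Dbh placed by 1 library. Th was above Ddc in 10 of 10 libraries, by 6.24 on the log2(FPKM + 1) scale (SD 0.82, exact paired permutation p = 0.00195, the smallest possible, and 0.0137 adjusted over 7 neighbouring pairs). Ddc was above Gch1 in 8 of 10 libraries, by 0.40 (SD 0.58, exact permutation adjusted p = 0.226). The 5 lower pairs had adjusted exact permutation p from 0.7 to 1, and their order rests largely on listed zeros. All 7 pairs were set by mean FPKM over these same libraries, so their p-values are not those of pairs fixed in advance.

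**Figure D2:**
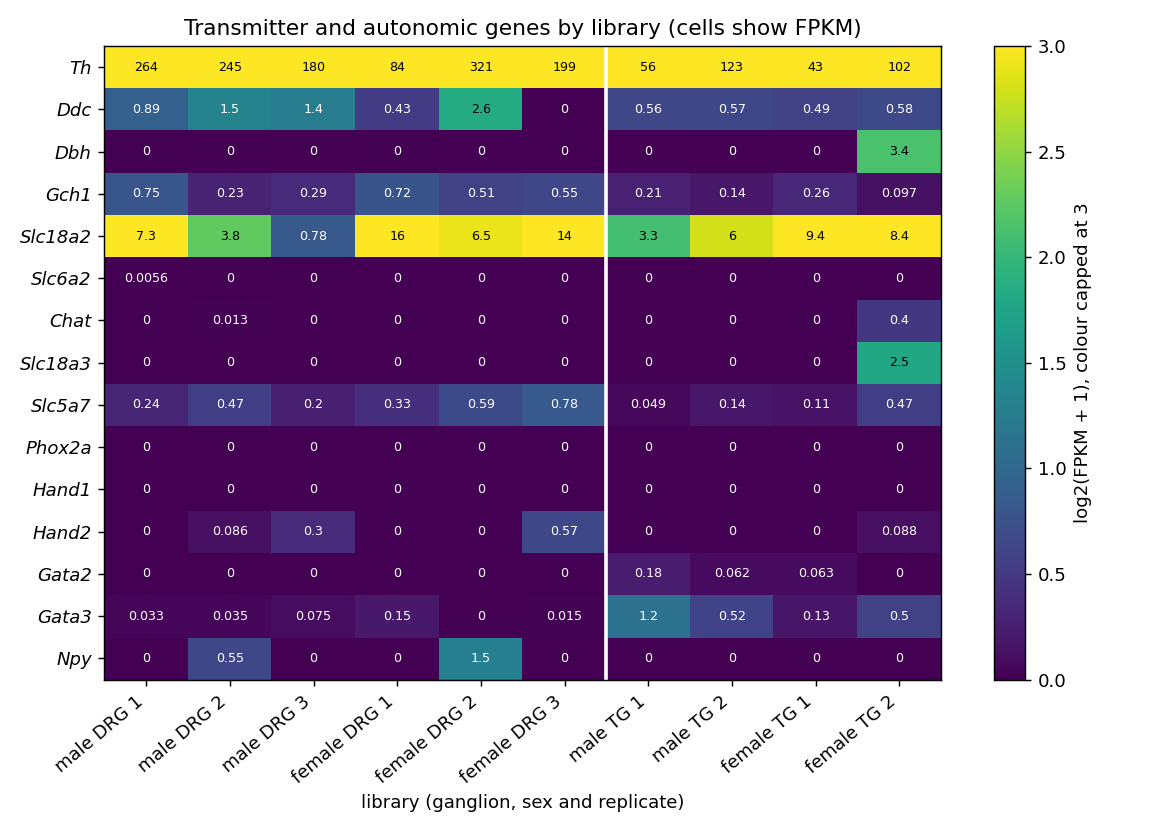
Colour gives log2(FPKM + 1), capped at 3, and the printed numbers are FPKM, for the 8 members and 7 related transmitter and autonomic genes (rows) in each library (columns, DRG left of the white line). The column for female TG replicate 2 holds the highest values of Dbh, Chat and Slc18a3.

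Female TG replicate 2 held several of these transcripts at once. Besides Dbh at 3.39 and Chat at 0.398, it alone was above 0 for Slc18a3, the vesicular acetylcholine transporter, at 2.48 FPKM. Slc18a3 lies within the Chat locus on the same strand, so reads of the pair can be split between them. This library was also the only one above 0 for Bscl2 and the Ubap2l entry described above, whose reads were counted in quantity. The authors' mean normalized counts were 4755 for Bscl2 and 1184 for Ubap2l, but 9.32 for Dbh and 5.80 for Slc18a3. Whether the zeros of Dbh and Slc18a3 in the other 9 libraries mean absence was not tested. Nor was it tested whether these transcripts are particular to female TG replicate 2. Slc18a3 was singled out after its values were seen. In that library 24 genes had at least 1 FPKM while listed at 0 in the other 9, and the corresponding number in the other libraries ran from 7 to 61.

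Of 9 sympathetic neuron markers, 3 were detected (Slc18a2, Chrna3 and Chrnb4), and their summed level over the list was 1.29 to 31.5 FPKM in DRG and 6.81 to 13.5 in TG, 13.5 being that of female TG replicate 2. Hand1 was listed at 0 in every library. Gata3 was at most 0.15 FPKM in DRG and 0.13 to 1.18 in TG. Of the 3 detected markers, 2 were fitted higher in DRG and 1 in TG, with 0 past the test. Chrna3 ran from 0.0771 to 11.9 FPKM in DRG and from 0.882 to 1.87 in TG. For Chrnb4 the ranges were 0.354 to 8.54 in DRG and 0.783 to 2.43 in TG. Npy was at 0.552 FPKM in male DRG replicate 2 and 1.46 in female DRG replicate 2. It was listed at 0 in every other library of DRG and in every TG library. The part of autonomic cells in the values of any member was not tested.

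Of the 8 autonomic transcription factors examined besides the members, 0 were detected. The highest was Insm1, a zinc-finger factor of developing neuroendocrine cells, at 0.675 ± 0.298 FPKM (SD, n = 6) in DRG and 0.940 ± 0.541 (SD, n = 4) in TG. Tfap2a, a neural crest factor, averaged 0.0766 FPKM in DRG and 0.126 in TG.

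Genes that handle catecholamines were examined as a list of 10, namely the adrenaline-forming enzyme, degrading enzymes, vesicular and plasma membrane transporters and a vesicle cytochrome. Of these, 6 were detected, with 2 fitted higher in DRG, 4 in TG and 0 past the test, and a median difference of -0.07 against -0.05 over all genes tested. Cyb561, which passes electrons into catecholamine vesicles, was at 36.3 ± 15.5 FPKM (SD, n = 6) in DRG and 37.8 ± 9.78 (SD, n = 4) in TG, and the monoamine oxidase Maoa at 17.1 ± 5.78 in DRG and 20.5 ± 1.95 in TG. The vesicular monoamine transporter Slc18a2 ran from 0.782 to 15.8 FPKM in DRG and from 3.28 to 9.35 in TG. The DRG range of Slc18a2 enclosed that of TG. The dopamine transporter Slc6a3 was listed at 0 in all 10 libraries.

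Tetrahydrobiopterin genes other than Gch1 were readily measured. Of 10 in this list, which also holds the other aromatic hydroxylases, 8 were detected, with 6 fitted higher in DRG, 2 in TG and 0 past the test (median 0.14). Qdpr, which regenerates the cofactor, was at 136 ± 34.5 FPKM (SD, n = 6) in DRG and 114 ± 13.2 (SD, n = 4) in TG. Its partner in regeneration Pcbd1 was at 102 ± 41.7 in DRG and 79.0 ± 24.4 in TG. The synthetic enzymes that follow Gch1, Pts and Spr, averaged 46.1 and 54.4 FPKM in DRG and 39.6 and 58.4 in TG. The gene for the first step was thus measured far below those for the later steps, in both ganglia.

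Of 7 cholinergic genes besides Chat, 5 were detected, 1 fitted higher in DRG and 4 in TG, with 0 past the test and a median of -0.51. Ache, which degrades acetylcholine, was at 22.1 ± 11.9 FPKM (SD, n = 6) in DRG and 28.6 ± 4.54 (SD, n = 4) in TG. Colq, the collagen tail that anchors acetylcholinesterase, was at 2.47 FPKM in male DRG replicate 1 and 2.70 in female DRG replicate 2 and was listed at 0 in the other 4 DRG libraries, against 8.15 and 5.77 in male TG and 7.88 and 5.60 in female TG. Colq did not overlap between ganglia, and its limma adjusted p was 0.107. Prima1, which anchors the same enzyme in membranes, averaged 1.06 FPKM in DRG and 1.58 in TG, and the related esterase Bche 1.08 and 0.908.

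Receptors for these transmitters were mostly near 0. Of 14 adrenergic and dopamine receptors, 1 was detected, Adra2b, at 3.73 ± 2.56 FPKM (SD, n = 6) in DRG and 3.49 ± 1.83 (SD, n = 4) in TG, with a limma adjusted p of 0.973. Adra2c and Adrb1 averaged 0.857 and 0.244 FPKM in DRG and 0.448 and 0.469 in TG, and Adra2a was listed at 0 in 1 DRG library and reached 1.07 FPKM in the others. Of 5 muscarinic receptors, 2 were detected and 0 passed the test. Chrm2 was at 2.99 ± 1.67 FPKM (SD, n = 6) in DRG and 1.14 ± 0.788 (SD, n = 4) in TG, with a limma adjusted p of 0.772. Chrm4 was fitted the other way, by -0.50 (limma adjusted p = 0.807), with a listed 0 in 1 DRG library and up to 2.33 FPKM in the others, and 1.09 to 2.54 in TG.

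Th was set beside other markers of C-LTMR neurons. All 8 such markers in the table were detected, and 0 passed the test. Of these, 6 were fitted higher in TG and 2 in DRG (median -0.42), opposite in sign to Th for most of the list. Fam19a4, a secreted protein of these afferents, averaged 57.4 ± 22.3 FPKM (SD, n = 6) in DRG and 91.9 ± 23.1 (SD, n = 4) in TG, a difference of -0.73 (limma adjusted p = 0.739). Zfp521, a zinc-finger factor, differed by -1.16 (limma adjusted p = 0.487), while the GDNF-family receptor Gfra2 differed by -0.56 and the mechanically gated channel Piezo2 by 0.33. Slc17a8 had the higher mean in DRG, at 0.818 ± 0.511 FPKM (SD, n = 6) against 0.473 ± 0.226 in TG (SD, n = 4). It reached 1 FPKM in 2 DRG libraries and in 0 of TG, so it passed the filter through DRG alone.

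**Figure D3:**
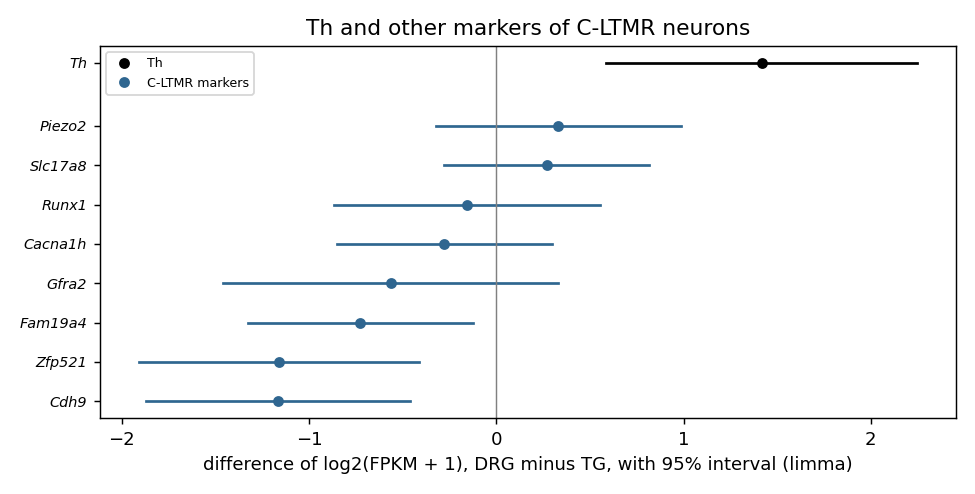
Difference of log2(FPKM + 1), DRG minus TG, with its 95% interval (limma, 10 libraries), for Th (black) and 8 other C-LTMR markers (blue). Th lies at 1.42, above all 8 markers, which run from -1.17 for Cdh9 to 0.33 for Piezo2.

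The ratio of Th to Fam19a4 FPKM within a library was 1.88 to 5.92 in DRG and 0.582 to 1.17 in TG, so every DRG library was above every TG library. The same held for the ratios of Th to Zfp521 and to Cdh9, a cadherin, hence for 3 of the 8 markers. Of the 11312 genes with which such a ratio could be formed, 14.3% showed the same order. These ratios share the Th values and are given without a test.

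Markers of glial cells were present in the libraries of both ganglia. All 11 satellite glia markers were detected, with a summed level of 1668 to 5623 FPKM in DRG and 4218 to 5659 in TG, and 0 passed the test. Of 9 Schwann cell markers, 8 were detected and all 8 were fitted higher in TG, with 0 past the test. Their median difference was -0.57, against -0.05 over all genes tested. Prx and Egr2 reached 1 FPKM in only 1 DRG library each. They passed the filter through TG alone, which favours that direction. Sums over the list were 867 to 1372 FPKM in DRG and 1319 to 1906 in TG. The part of these cells in the Th difference was not tested.

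By Pearson correlation of log2(FPKM + 1) over the 10 libraries, the detected genes most like Th were Rnase4 (r = 0.896), Bves (0.889) and Wfdc17 (0.885). Among those most like Ddc were Ly6e (0.901) and Elfn1 (0.896). Without the 2 libraries farthest from the median of the member, r was 0.816 to 0.895 for the genes like Th and, with Ddc, 0.770 for Ly6e and 0.906 for Elfn1. These are the highest of 12637 genes and share libraries and ganglia with the member, so they are descriptions only.

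The deposited tables also hold the authors' mean FPKM of magnetically sorted DRG neurons from another study, normalized separately and given with no error. Th stood at 168 FPKM there, Gch1 at 3.31, Ddc at 0.287 and Dbh at 0.00764. Slc6a2, Phox2a, Hand2 and Chat were listed at 0. Th was the highest of the 8 members in that preparation too, and Gch1 stood above Ddc, whereas in the GFP-positive libraries Ddc had the higher mean.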

How the data were processed

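RNA-seq of 10 libraries was used, grouped by ganglion and sex from their titles. RNA was extracted in 1 batch and amplified with a SMARTer low-input kit. According to the submitters' processing notes and the methods, the authors aligned reads to mm10 with STAR, made FPKM with Cufflinks and compared groups with DESeq2; versions are not given in the sources used here. The deposited FPKM are per gene and library. A deposited signal, the authors' mean of counts divided by size factors, served as a check on genes with an FPKM of 0, and mean FPKM of another study were copied as deposited by Ensembl ID. Its listed chromosome matched GENCODE for 0 of the 8 genes, so its positions were not used. Of per-sample columns 22 were not used: 12 of the other study and 10 that repeat the FPKM. Fold changes and p-values of the authors' comparisons were not used.

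FPKM summed to 543862 to 870872 per library. Read counts were not used, so no counting interval is given and the replicate spread stands for the precision. Cells were sorted per animal, but which animal gave which library is not stated, and p-values measure the spread between libraries. Genes with FPKM of at least 1 in at least 2 libraries of DRG or of TG were tested on log2(FPKM + 1), which understates changes of low genes, with limma 3.58.1 in R 4.3.3 (eBayes with a trend; terms for ganglion and for sex), Benjamini-Hochberg adjusted over all genes at 0.05. Exact permutation tests are two-sided. The limma step was tested on simulated data.

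The members and gene lists were chosen with earlier results of these data known. Named from each list are the 4 genes with the highest mean FPKM and any that passed; for Th and Ddc, the 3 genes of highest Pearson r. Cdh9, Slc17a8, Slc6a3, Hand1, Npy, Slc18a3, Bscl2 and Ubap2l were named after their values were seen, and a few genes within this rule are left out of the text. Libraries of a shared description number were taken as pairs: their deviations from the group means correlated at 0.148 to 0.383 in 4 of 4 pairs, each above the limit of 0.1. The labels do not say whether a pair came from 1 mouse. Title numbers did not pair the libraries. Alternatives were pseudocounts of 0.1 and 0.5, no filter, a filter at 5 FPKM, median-ratio and quantile rescaling, no trend, array weights, a model with no second term, both blocks, each library left out in turn, and the 3 DRG libraries that stood apart left out together. Positions are from GENCODE M21 on GRCm38 and promoters from RefSeq on GRCm38.p6.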

Additional observations from a re-analysis of the deposited data

Results flagged for a closer look

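In 5 of the 12 sets of members by ganglion with any spread, 1 library lay far from the rest of its group by Dixon's test. All 5 sets have exactly 1 library above 0, and such a set is always flagged, so the chance rate of about 1 in 20 does not apply to them and the flags show only where that value lies. In TG the library was female TG replicate 2 for Dbh (3.39 FPKM), Chat (0.398 FPKM) and Hand2 (0.0883 FPKM). In DRG it was male DRG replicate 1 for Slc6a2 (0.00558 FPKM) and male DRG replicate 2 for Chat (0.0135 FPKM). Phox2a, listed at an FPKM of 0 in every library, had a mean normalized count of 4.03 in the authors' table of comparisons, a signal outside the measurement used above.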

How the results depend on the processing

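Th kept its sign between DRG and TG in 24 of 24 alternatives (1.18 to 1.91 on the log2 scale) and passed with array weights only, so the members that passed rose from 0 to 1 there. Leaving out each library in turn gave Th differences of 1.18 to 1.66, and the Ddc difference ran from 0.12 to 0.78 over its alternatives, a sign that its passing the filter through DRG alone favours. Over all genes, the 14 that passed between ganglia became 118 with array weights, 31 without the 3 DRG libraries that stood apart, and 22 in the 8 libraries with title numbers and no block; leaving out 1 library gave 11 to 25, the 25 without male DRG replicate 3. Between the sexes, 3 became 5 with array weights and 7 without those 3 libraries, and 2 to 4 with 1 library left out. For the interaction, 0 became 3 with no filter and 1 with array weights, and 0 to 5 with 1 library left out, the 5 without female DRG replicate 2. Neighbouring pairs of members whose levels differed numbered 1 in the full set, 1 to 2 with 1 library left out (2 without female TG replicate 2), and 0 without the 3 DRG libraries, where 7 libraries cannot reach the threshold after adjustment. With the replicate block by description numbers the Th difference was 1.62 (limma adjusted p = 0.288, against 0.341 for the same 8 libraries without it), and with title numbers 1.45 (0.130 against 0.452); the block changed no call of a member. The cause of these changes was not tested. Fits at the filter of 5 FPKM do not include Ddc.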
